A study of Homo sapiens with 6 samples.

Results

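The receptor subunits described here bind interleukin 12 (IL-12), IL-23, IL-6, IL-27, IL-18, IL-1 and IL-33. They are the 10 genes IL12RB1, IL12RB2, IL23R, IL6R, IL6ST, IL27RA, IL18R1, IL18RAP, IL1R1 and IL1RL1, chosen by receptor family and with their values in the deposited comparison already known. The authors' deposited table lists 33644 genes, and 9 of the 10 subunits were found in it by gene ID; IL27RA was not analysed here. Of these 9 subunits, 7 had a mean above 0 and 6 had an adjusted p.

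The series concerns HEK293T, a cell line grown from human embryonic kidney that carries SV40 large T antigen. It also concerns a knockout of alt-LAMA3 made in that line. The labels give 3 wild-type and 3 knockout samples, each taken at day 0 and grown in the same serum-containing medium, and do not say whether the samples of a group were separate cultures or whether the knockout line was 1 clone. The p-values may therefore measure technical spread only. The table holds the result of 1 comparison between 2 groups that its header does not name. A positive log2 fold change means higher expression in what is called here the numerator group, a negative one higher expression in the denominator group, and which of them, if any, is the knockout is not given.

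The table's contents differed from its labels. A mean normalized count of at least 72.0 was reached by 10 of 13 T-cell marker genes. Of 12 genes listed for HEK293 cells, 2 reached it (VIM among them). This minimum is used below for marker levels, ranks and an alternative adjustment, while the calls cover all genes with an adjusted p. In the authors' deposited table the T-cell receptor chain CD247 stood at a mean of 13033 and the co-receptor chain CD8A at 27074, while the HEK293 genes NEFL, NEFM and SALL1 were listed at 0. Means that many genes shared exactly took 9 values once sums of 2 such values were left out, as 9 libraries would give and not 6. Of these values, 3 were at positive, 3 at negative and 3 at zero fold changes. The totals of single libraries are not given. LAMA3, the targeted gene, had a mean of 19.0 and stood at -0.62 on the log2 scale (SE 0.69, adjusted p = 0.578), and does not show which group is which. No statement on the knockout follows from any value below.

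IL-12 and IL-23 are made of a shared and a private chain each, and their receptors follow the same plan. IL12RB1 is the shared receptor chain; IL12RB2 completes the IL-12 receptor, which signals mainly through JAK2, TYK2 and STAT4 in T helper 1 and natural killer cells, and IL23R completes the IL-23 receptor, which signals mainly through STAT3 in T helper 17 cells. IL6ST (gp130) is the signalling chain of IL-6, IL-27 and related cytokines, whereas IL6R and IL27RA give specificity. The IL-18, IL-1 and IL-33 receptors belong to a separate family whose intracellular domains recruit MyD88: IL18R1 binds IL-18 and IL18RAP is its signalling partner, IL1R1 binds IL-1, and IL1RL1 (ST2) binds IL-33.

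The subunits lie in chromosomal groups. The start regions of 4 of them are printed: the shared chain IL12RB1 and the genes of the adjacent pairs other than IL23R. No promoter window was given for IL23R. On GRCh38 with GENCODE 29, IL23R (chr1:67138907-67259979, plus strand) ends 47.4 kb before IL12RB2 (chr1:67307364-67397090, plus strand). IL18R1 (chr2:102311529-102398775, plus strand) ends 19.9 kb before IL18RAP (chr2:102418689-102452565, plus strand), in a cluster that also holds IL1R1 (chr2:102064544-102179874) and IL1RL1 (chr2:102311502-102352037). IL12RB1 (chr19:18058995-18098944, minus strand), IL27RA (chr19:14031748-14053216), IL6R (chr1:154405193-154469450) and IL6ST (chr5:55935095-55994993, minus strand) stand apart from them. The sequences come from RefSeq promoter windows on GRCh38.p14 and are limited to bases outside annotated exons, 5′ to 3′ on the gene's strand. The IL18R1 stretch lies inside the gene as GENCODE annotates it, before a downstream start. Capitals mark the reverse complement of the GATA motif AGATAA. They are IL12RB2 at chr1:67307114-67307363, IL12RB1 at chr19:18098945-18099177 (minus strand), IL18R1 at chr2:102355546-102355795 and IL18RAP at chr2:102418371-102418620.
IL12RB2: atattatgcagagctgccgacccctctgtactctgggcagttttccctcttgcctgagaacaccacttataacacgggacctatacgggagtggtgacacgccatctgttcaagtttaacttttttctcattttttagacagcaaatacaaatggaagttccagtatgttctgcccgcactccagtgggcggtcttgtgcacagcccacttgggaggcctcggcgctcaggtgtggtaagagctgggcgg
IL12RB1: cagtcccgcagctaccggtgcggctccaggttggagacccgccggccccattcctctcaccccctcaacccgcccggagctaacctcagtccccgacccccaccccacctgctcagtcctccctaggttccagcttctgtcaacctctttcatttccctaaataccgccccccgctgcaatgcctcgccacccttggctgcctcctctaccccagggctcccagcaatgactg
IL18R1: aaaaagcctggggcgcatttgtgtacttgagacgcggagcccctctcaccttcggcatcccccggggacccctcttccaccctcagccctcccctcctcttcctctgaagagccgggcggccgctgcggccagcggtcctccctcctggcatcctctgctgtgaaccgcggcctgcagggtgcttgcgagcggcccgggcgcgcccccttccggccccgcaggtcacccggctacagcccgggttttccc
IL18RAP: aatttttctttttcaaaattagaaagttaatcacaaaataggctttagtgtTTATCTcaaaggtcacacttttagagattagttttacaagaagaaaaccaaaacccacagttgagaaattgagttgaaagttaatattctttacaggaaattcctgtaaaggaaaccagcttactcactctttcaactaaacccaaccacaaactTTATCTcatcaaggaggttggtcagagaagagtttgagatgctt

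The adjacent IL-18 receptor genes differed in the base composition of these stretches: G and C made up 70.4% of the IL18R1 sequence and 32.4% of the IL18RAP sequence, with 51.6% for IL12RB2 and 64.8% for IL12RB1. The median over all 35116 RefSeq windows, each 300 bases long, was 58.7%. Windows were found for 9 of the 10 subunits (17 windows), and IL23R had no entry. Motifs for 5 factor families were searched on both strands. The GATA motif AGATAA lies in 10.3% of all windows, the STAT motif TTCNNNGAA in 7.66%, the AP-1 motif TGANTCA in 7.71%, the T-box motif AGGTGTGA in 0.980% and the NF-kB motif GGACTTTCC in 0.370%. The IL18RAP stretch holds 2 GATA matches, the first of them at position -199 from the start site. A further IL18R1 window held a T-box match at position -29 and a GATA match at -41 from its start site. IL1R1 had a STAT and a GATA match in 1 window, IL1RL1 a GATA match in 1 window and an AP-1 match in another, IL6R an AP-1 match and IL27RA an NF-kB match. No window of IL12RB1, IL12RB2 or IL6ST held any of these letters. A match describes letters only.

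The 2 private chains of the IL-12 and IL-23 receptors were higher in the numerator group, and the chain they share was lower. In the authors' deposited table IL23R was 33.6-fold higher (95% interval 26.6 to 42.6), IL12RB2 1.68-fold higher and IL12RB1 1.88-fold lower. IL18R1 was 8.51-fold lower. These were the 4 subunits past an adjusted p of 0.05, 2 in each direction, of 6 with an adjusted p; over all 13957 genes with an adjusted p, 29.5% passed, 14.7% higher and 14.8% lower. Since the same comparison was known when the genes were chosen, the counts describe the subunits and nothing is read from them. The median log2 fold change was -0.81 over the 6 subunits and 0 over all genes with an adjusted p.

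Levels can be compared between genes only per length. Per kilobase of the longest annotated transcript, the deposited mean normalized counts fell in the order IL12RB2 (839), IL12RB1 (332), IL23R (216), IL6ST (27.6), IL18R1 (16.2), IL18RAP (1.45) and IL6R (0.172), with IL1R1 and IL1RL1 listed at 0. The median over genes above 0 was 8.08, so that 5 subunits lay above it. The spread of these levels over libraries is not known, so whether neighbours in the order differ beyond it cannot be said. The top place and the gaps depended on the length used, whereas the union of exons kept the order. With the median transcript length IL12RB1 (1617 per kilobase) stood above IL12RB2 (898), and IL6ST (408) came close to IL23R (418).

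**Figure D1:**
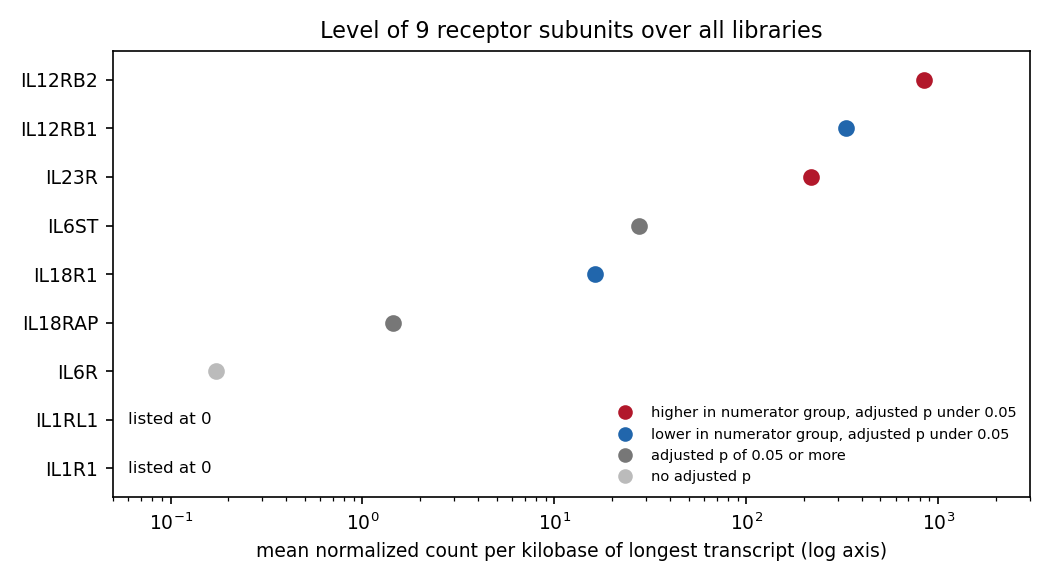
Each point is the deposited mean normalized count over all libraries per kilobase of the longest transcript, on a log axis, for the 9 receptor subunits found in the table; colour gives the call in the deposited comparison. IL12RB2, IL12RB1 and IL23R lie at 216 or above and the other detected subunits at 27.6 or below, and IL1R1 and IL1RL1 are listed at 0.

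**Figure D2:**
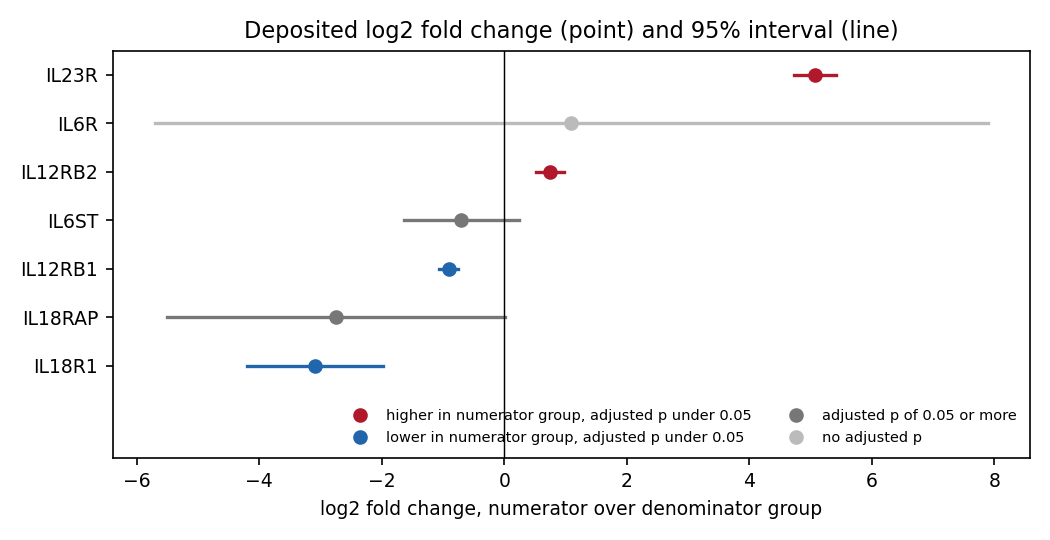
Points are deposited log2 fold changes between the unnamed numerator and denominator groups and lines are 95% normal intervals from the deposited standard errors, for the 7 subunits with a mean above 0. The intervals of IL23R and IL12RB2 lie above 0, those of IL12RB1 and IL18R1 below it, and those of IL6R, IL6ST and IL18RAP include it.

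In the authors' deposited table IL23R had a mean of 629.9 and a deposited log2 change of 5.07 (SE 0.17, adjusted p = 1.51e-183). No value per sample can be given, because the table holds only a mean over all libraries. If that mean covered the 2 compared groups alone and equally, IL23R would stand at 1224 in the numerator and 36.4 in the denominator group. The 9 values of shared means, 3 of them at a log2 fold change of 0, would instead go with a further group of equal size. With such a group the values could reach at most 1835 and 54.6, and could lie far lower. The same holds for the 2-group levels of the other subunits below. Among the 8312 genes with an adjusted p and a mean of at least 72.0, 4 had a rise of at least this size, IL23R included. In mean and fold change the genes nearest to IL23R were PIK3R6 (log2 fold change 5.00, distance 0.29 in log2 units over both coordinates), DNAJC5B (mean 397, distance 1.26) and DMBT1 (5.95, SE 1.53, distance 1.63).

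With a deposited mean of 3389, IL12RB2 was the subunit with the highest mean, and its log2 fold change was 0.75 (SE 0.12, adjusted p = 1.52e-09). On the 2-group reading its levels would be 4246 and 2532, and a further equal group would allow at most 6369 and 3798. Its rise did not exceed 1.5-fold by the test against that size (adjusted p = 1). Of the 8312 genes above the minimum, 540 had a rise at least this large, IL12RB2 included. The shared chain IL12RB1 had a mean of 962 and a deposited log2 change of -0.91 (SE 0.08, adjusted p = 5.51e-28), with 2-group levels of 669 and 1256 and at most 1003 and 1883 with a further equal group. Falls of at least that size were found for 393 of the 8312 genes, IL12RB1 included.

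Within the IL-12 and IL-23 receptors the chains therefore moved apart. The ratio of IL12RB2 to IL12RB1 was 3.15-fold higher in the numerator group (difference of log2 fold changes 1.65, SE 0.14), and the ratio of IL23R to IL12RB1 was 63.2-fold higher (5.98, SE 0.19). Between the private chains, the IL23R to IL12RB2 ratio was 20.1-fold higher (4.33, SE 0.21). These errors treat the deposited errors of the genes as independent, which was not tested.

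The genes beside this pair had smaller fold changes than IL23R. SERBP1, an RNA-binding protein gene on the far side of IL12RB2, had a mean of 18172 and rose by 0.26 on the deposited log2 scale (SE 0.06, adjusted p = 2.55e-05). C1orf141, which overlaps IL23R on the opposite strand without sharing exon bases, had a mean of 5.38 and a deposited log2 change of 1.95 (SE 1.02, adjusted p = 0.145). GADD45A, a growth-arrest gene further along, had a mean of 13.1 and a deposited log2 change of 0.39 (SE 0.60, adjusted p = 0.713). SLC35D1 was not analysed here. Whether the counting used strand is not given in the sources used here, so reads of IL23R and C1orf141 introns, or of IL12RB1 and its opposite-strand neighbour MAST3, cannot be told apart. MAST3 shares no exon bases with IL12RB1 and fell by 0.36 on the log2 scale (SE 0.11, adjusted p = 0.00398).

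The authors' deposited table gives IL18R1, the ligand-binding chain of the IL-18 receptor, a mean of 62.4 and a deposited log2 change of -3.09 (SE 0.57, adjusted p = 5.85e-07). The 2-group reading would place it at 13.1 in the numerator and 112 in the denominator group, and a further equal group would allow at most 19.7 and 168. Once the errors were multiplied by the spread of the deposited statistics, the call was lost (adjusted p = 0.0770). That spread also holds any true changes, so it does not measure the errors alone. IL18R1 was the subunit past the threshold with the highest adjusted p. The nearest beyond the threshold was IL18RAP, at an adjusted p of 0.136 and an unadjusted p of 0.0507. IL18RAP, the signalling partner, had a mean of 4.02, worth about 27.3 to 68.5 reads over all libraries, and a log2 fold change of -2.75 (SE 1.41). The 2 chains differed in fold change by 0.34 (SE 1.52, 95% interval -2.64 to 3.31), an interval wide enough to hold both equal and very unequal changes. The genes nearest to IL18R1 in mean and fold change were TMEM229B (log2 fold change -2.91, distance 0.35), LTB (-2.72, distance 0.37) and NT5E (-3.37, distance 0.39).

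Most T-cell and natural killer markers with an adjusted p, listed for cells that can carry the IL-18 receptor, were lower in the same group as IL18R1. Of 11 T-cell markers with an adjusted p, 8 were lower in the numerator group and 0 higher, where 14.8% of all genes were lower and 14.7% higher, and their median log2 fold change was -0.51; CD3E, for example, was at -0.51 (SE 0.06, adjusted p = 4.26e-16). CD4 and CD5 stood at means of 1.83 and 1.87. Against the same shares of all genes, 3 of 4 natural killer markers with an adjusted p were lower and 0 higher, with a median of -1.87, and NCAM1 (CD56) was at -1.61 (SE 0.10, adjusted p = 1.45e-53). The summed mean of the 7 natural killer markers was 12613, of which GNLY gave 11971 and NCAM1 576. FCGR3A, KLRF1 and SH2D1B had means of 61.6, 3.43 and 0.579, and NCR1 and KIR2DL4 were listed at 0. Fewer cells of a type and less RNA per cell cannot be told apart in such bulk RNA, and the part of either marker list in the fall of IL18R1 was not tested.

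The remaining receptor genes of the chromosome 2 cluster were at or near 0. IL1R1 and IL1RL1 were listed at 0 in the deposited table, as was IL1RL2 (the IL-36 receptor), while the decoy receptor IL1R2 had a mean of 0.106. IL18R1 and IL1RL1 share 95 exon bases on the same strand, which a counting step could assign to either. The flanking genes on 1 side were MAP4K4, a kinase gene with a mean of 1256 that fell by 0.55 on the log2 scale (SE 0.07, adjusted p = 5.72e-13), and on the other side the sodium-proton exchanger genes SLC9A4 and SLC9A2, at means of 2.14 and 0.636 and with no adjusted p.

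The chain common to the IL-6 family, IL6ST, had a deposited mean of 249.8 and a log2 fold change of -0.70 (SE 0.48, 95% interval -1.64 to 0.23, adjusted p = 0.299). Its standard error exceeded that of 98.2% of the 1789 genes with a mean within 1.5-fold of its own, whose median was 0.19. IL12RB2 stood as far out by the same measure, with an error above that of 97.3% of 878 such genes, and IL12RB1 did not, at 19.9% of 1602. Of the IL6ST exon bases, 797 are shared with AC008914.1 on the opposite strand, which was not analysed here; the pseudogene IL6STP1 was listed at 0. IL6R, which gives the receptor its specificity for IL-6, had a mean of 1.02, worth about 6.94 to 17.4 reads in all, and no adjusted p (log2 fold change 1.09, SE 3.47). A difference in IL6R was not detectable with so few reads.

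**Figure D3:**
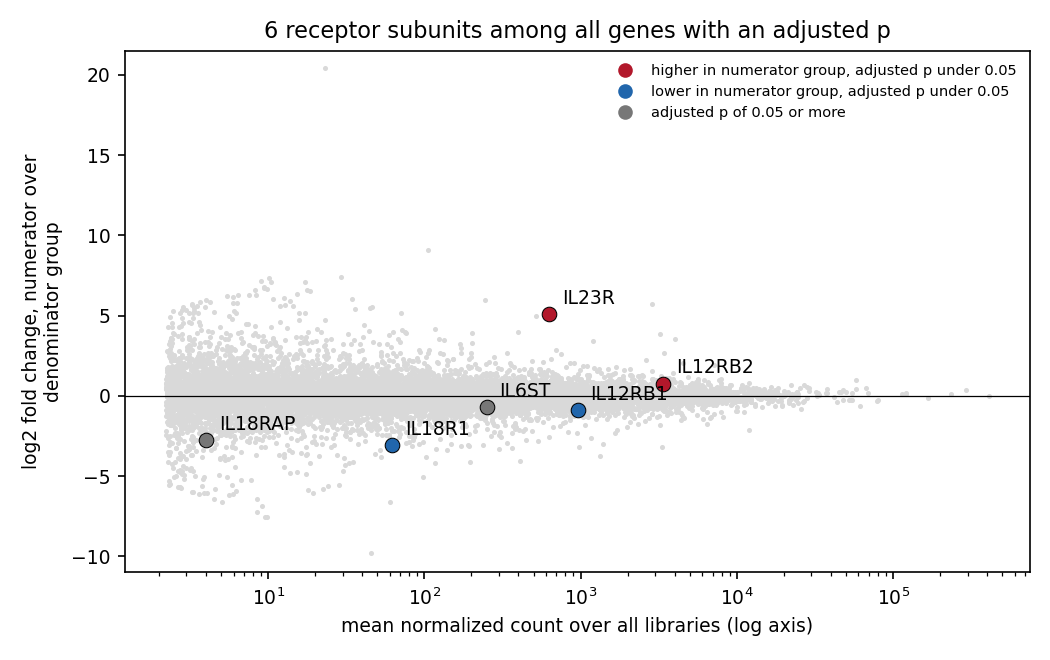
Each grey point is a gene with an adjusted p, with its deposited mean normalized count on a log axis and its log2 fold change between the unnamed numerator and denominator groups; the 6 subunits with an adjusted p are named. IL23R lies above nearly all genes of its mean, IL18R1 below most, and IL12RB1, IL12RB2 and IL6ST closer to 0.

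The other genes of these pathways were taken as 5 lists of 69 genes in all, of which 67 were found in the table and 49 had an adjusted p. In the deposited comparison 8 of the 49 were higher, 7 lower and 34 did not pass, a share of 30.6% called against 29.5% of all genes, and their median log2 fold change was -0.01. Among the ligands and their soluble inhibitors, 9 of 22 had an adjusted p, with 2 higher and 1 lower, where 14.7% and 14.8% of all genes were, and a median of -0.55. IL1A, which binds IL1R1 and had the highest mean of the list (279.96), rose by a deposited log2 change of 0.81 (SE 0.16, adjusted p = 4.48e-06). IL18BP, the secreted inhibitor of IL-18, fell by 0.55 on the log2 scale (SE 0.17, adjusted p = 0.00509). The other ligand past the threshold was LIF, a gp130 cytokine, at 0.74 (SE 0.29, adjusted p = 0.0351), named after its value was seen. Of the ligand chains of IL-12 and IL-23, IL12A had a mean of 39.0 and IL23A of 5.02, and IL12B was listed at 0. Per kilobase of the longest transcript, IL12A stood at 20.4 and IL23A at 4.80, against a median of 8.08 over genes above 0. Neither passed the threshold (adjusted p = 0.243 and 0.480).

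Other subunits of the same families gave 3 higher and 1 lower of 8 with an adjusted p, where 14.7% and 14.8% of all genes were, with a median log2 fold change of 0.71. The leptin receptor LEPR rose by 1.68 (SE 0.14, adjusted p = 2.38e-32). IL1RAP, the co-receptor of IL1R1 and IL1RL1 and the gene with the highest mean of the list (980.3), rose by 1.06 (SE 0.24, adjusted p = 7.24e-05), and its ratio to IL18R1 was 17.8-fold higher in the numerator group. OSMR, the oncostatin M receptor that pairs with IL6ST, was the other gene to rise, by 1.28 (SE 0.15, adjusted p = 4.53e-16), and LIFR, which also pairs with IL6ST, fell by 0.40 on the log2 scale (SE 0.14, adjusted p = 0.0155).

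Downstream of the IL-12, IL-23 and IL-6 receptors, among the 8 JAK kinases and STAT factors, the median deposited log2 fold change was -0.05. STAT3, the main factor of IL-6 and IL-23, fell by 0.37 on the log2 scale (SE 0.06, adjusted p = 1.85e-09). STAT4, the main factor of IL-12, had a deposited log2 change of 0.13 (SE 0.16, adjusted p = 0.638). Per kilobase of the longest transcript, TYK2 stood at 499 and JAK2 at 317, against 4.02 for JAK1, which nearly all cells use; whether all reads of such low genes were counted is not known, and the low values of IL6R and IL18RAP have the same limit.

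In the MyD88 arm 0 of 14 genes with an adjusted p were higher and 3 lower, where 14.7% and 14.8% of all genes were, and the median was -0.13. MYD88, the adaptor of the IL-1 and IL-18 receptors, fell by 1.08 on the log2 scale (SE 0.33, adjusted p = 0.00479). The kinase IRAK4 and the adaptor TAB2, named after their values were seen, were at -0.30 (adjusted p = 0.00386) and -0.22 (adjusted p = 0.0444). UBE2V1, a ubiquitin-conjugating cofactor with the highest mean of the list (5367), had a deposited log2 change of -0.08 (SE 0.05, adjusted p = 0.334). Of the 10 feedback inhibitors and shedding proteases, 2 were higher and 1 lower, against those same shares, with a median of 0.18. SOCS3, which blocks signalling at IL6ST, rose by 0.67 (SE 0.14, adjusted p = 9e-06), and CISH, also named after its value was seen, by 0.37 (SE 0.15, adjusted p = 0.0391). ADAM10, a protease that sheds cytokine receptors, fell by 0.52 on the log2 scale (SE 0.06, adjusted p = 4.53e-16). PTPN11, the phosphatase with the highest mean of the list (8587), stood at 0.00 (SE 0.08, adjusted p = 0.994).

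The common gamma-chain receptors, another set of cytokine receptors of lymphocytes, gave the nearest comparison. All 8 had an adjusted p, 2 were higher and 3 lower, where 29.5% of all genes passed in either direction, and their median log2 fold change was -0.17. IL21R rose by 1.14 (SE 0.14, adjusted p = 1.64e-15) and IL9R fell by 0.48 on the log2 scale (SE 0.07, adjusted p = 1.81e-09), while IL2RA, with the highest mean (27989), fell by 0.14 (SE 0.05, adjusted p = 0.0180). The other calls, named after their values were seen, were IL4R at 0.30 and IL2RG at -0.32. In these deposited values no common gamma-chain receptor changed by as much as IL23R or IL18R1; the difference between the sets was not tested.

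**Figure D4:**
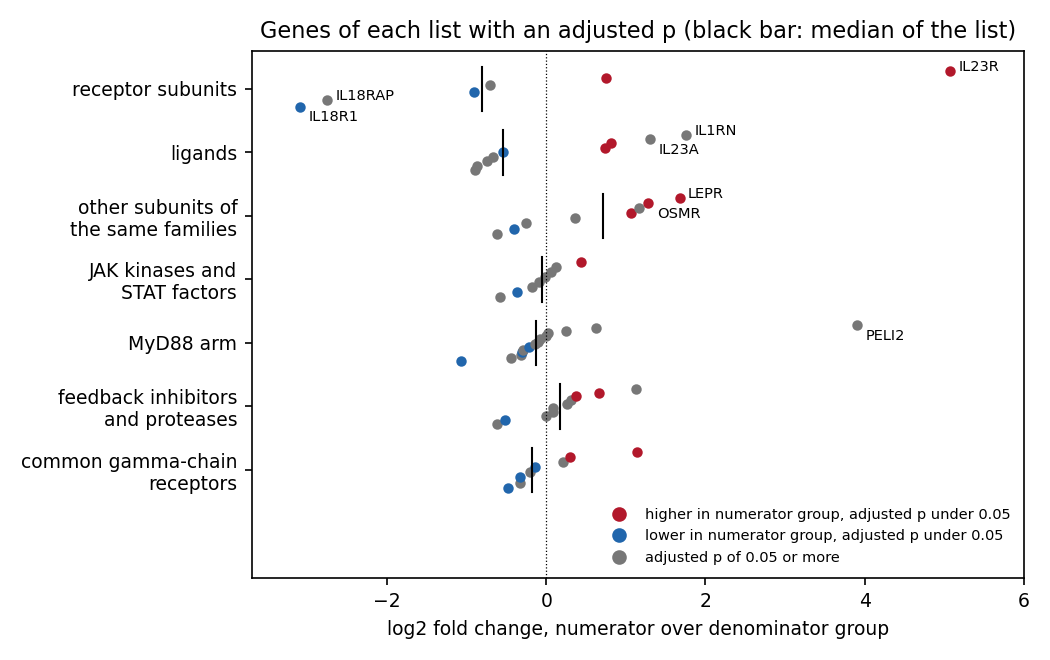
Each point is a gene with an adjusted p, placed by its deposited log2 fold change between the unnamed numerator and denominator groups, with 1 row for each gene list and a black bar at the list's median; genes beyond 1.2 in either direction are named. IL23R lies at 5.07 and IL18R1 at -3.09, and PELI2, at 3.91 with an adjusted p of 0.0848, is the one gene of the other lists beyond 2 in either direction.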

How the data were processed

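The labels describe total RNA from 3 wild-type and 3 knockout samples, made into libraries with a SMARTer kit. STAR, Salmon and hg38 appear in the submitters' processing notes, with no version and no role. The authors deposited a mean normalized count per gene, a signal averaged over all libraries per the file headers. The log2 fold change, its standard error, a score (fold change over error, to within 4.23e-07) and a p-value with its adjusted p were likewise deposited by the authors. Per the file headers, the authors deposited columns named as in DESeq2 output. Which program, model and filter made them, and in which direction, is not stated in those sources.

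The planned count test needed counts per sample, and 0 columns held them, so the deposited comparison was used in its place. Its adjusted p equalled Benjamini-Hochberg adjustment over 13957 genes to within 3.66e-07, and the lowest mean among them was 2.22. IDs were matched without version to symbols (33483 matched) and to GENCODE 29 (33582 matched). Intervals (95%) are normal ones from the deposited errors. Reads in all were bounded by the means that 1 read gives, 0.0586 to 0.147, and cover 9 inferred libraries. These means were each shared by at least 50 genes, and sums of 2 of them were left out. The depth of each library is not given, and the median deposited error was 0.26.

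The members, gene lists and tests were chosen with earlier results of these data known. Named genes are the subunits, each list's largest rise and fall past an adjusted p of 0.05 and its highest mean, 2 neighbouring genes per side, and the 3 genes nearest in log2 mean and log2 fold change. Scripts used Python 3.11.15, numpy 2.4.6, pandas 2.3.3, scipy 1.17.1 and matplotlib 3.10.9, and the adjustment and calls were tested on simulated data. Some genes that the rule names are not reported here. Further thresholds, adjustments, errors, scalings and lengths were tried as alternatives.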

Additional observations from a re-analysis of the deposited data

How the results depend on the processing

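Over 7 alternatives, 38 of 40 adjusted p-values of single subunits stayed on their side of the threshold. The stricter threshold of 0.01 used the deposited adjusted p unchanged. IL18R1 and IL18RAP are not among the 40 where a minimum mean left them out. Of the 2 subunits called higher, 1 was left in the test against a 1.5-fold change, where IL12RB2 had an adjusted p of 1. Of the 2 called lower, 1 was left when adjustment covered genes with a mean of at least 72.0, which leaves IL18R1 out by its mean of 62.4, and 1 when errors were widened 2.03 times, where IL18R1 had an adjusted p of 0.0770. Over all genes, 330 higher and 323 lower remained past the threshold against a 1.5-fold change, and 600 higher and 596 lower with widened errors, against 2054 and 2066. Recentring, the one alternative that alters fold changes, shifted all of them by the median of -0.01. With the median transcript length, levels per kilobase of all detected subunits except IL12RB2 moved by more than 1.5-fold, for example to 408 for IL6ST and 1.39 for IL6R. No paired analysis was possible because the table holds no values per sample; for the same reason leaving out libraries and the planned count models were not run. The depth of each library is not given. This limits what the low means of IL6R and IL18RAP and the zeros of IL1R1 and IL1RL1 can show.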

Other observations

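Genes of the T helper programmes that these receptors serve were also measured in the deposited comparison. Of 6 T helper 1 genes with an adjusted p, 5 were lower in the numerator group and 0 higher, with a median log2 fold change of -1.26. The largest fall was that of HLX, a transcription factor, at -4.15 (SE 0.59, adjusted p = 3.94e-11), and RUNX3, with the highest mean (8378), was at -0.16 (SE 0.06, adjusted p = 0.0332). The chemokine receptor CXCR3 at -1.28 and the factor EOMES at -1.25, named after their values were seen, were among the others. TBX21, the defining factor of T helper 1 cells, had a mean of 0.669 and no adjusted p.

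Of 7 T helper 17 genes with an adjusted p, 2 were higher and 4 lower, with a median of -0.63. IRF4, a factor of lymphocyte activation, was at 1.21 (SE 0.31, adjusted p = 0.000746), and the lectin receptor KLRB1 at -2.97 (SE 0.24, adjusted p = 1.38e-33). MAF, the factor with the highest mean (1654), was at -2.32 (SE 0.08, adjusted p = 9.62e-164). Named after their values were seen, AHR stood at 0.97, CCR6 at -2.25 and BATF at -0.63. Of 8 T helper 2 genes, 1 was higher and 6 lower, with a median of -0.98: the chemokine receptor CCR4 was at 1.95 (SE 0.04), the prostaglandin synthase HPGDS at -2.85 (SE 0.37, adjusted p = 3.41e-13), and IL17RB, with the highest mean (9937), at -0.96 (SE 0.04, adjusted p = 7.24e-98). The background was 14.7% of all genes higher and 14.8% lower. The T helper 17 list holds IL1R1 and the T helper 2 list IL1RL1, both listed at 0. What the falls of other genes in the T helper lists have to do with IL23R or IL18R1 was not tested.

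Markers of other cell types gave mixed levels. None of 7 B-cell markers reached a mean of 72.0 (MS4A1 and PAX5 were listed at 0), and 1 of 8 monocyte markers did. Of 5 mast-cell markers 1 did, KIT at a mean of 769, and MS4A2 and CPA3 were listed at 0. Of 6 regulatory T-cell markers 2 did, IKZF2 at 2117 and IL2RA at 27989, and FOXP3 and CTLA4 were listed at 0. Of 4 genes of group 2 innate lymphoid cells found in the table, 2 reached that mean and IL1RL1 was listed at 0.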
